A study of Homo sapiens with 14 samples.

Results

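The 44 genes described here encode the machinery that copies DNA in S phase. Before S phase, the origin recognition complex, CDC6 and CDT1 load rings of MCM2 to MCM7 onto origins, and geminin (GMNN) blocks a further round of loading. In S phase CDC45 and the GINS complex turn the MCM ring into the active helicase, polymerases alpha, delta and epsilon copy the strands, and PCNA with its loader RFC keeps polymerases on DNA. Most of these genes are known targets of E2F factors, which RB restrains, and p53 is known to lower many of them through p21 (CDKN1A).

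The genes were matched by symbol to the identifiers of the deposited tables, and all 44 of the listed symbols were found among 78686 identifiers. RNA came from HCT116, a colon carcinoma line, that carries osTIR1(F74G), a plant-derived adaptor of the ubiquitin system, and SAF-A fused to the mAID degron and a Halo tag. SAF-A is the protein of HNRNPU, an RNA-binding protein of the nuclear scaffold, and adding the auxin analog 5-Ph-IAA sends it for degradation. All groups carry these alleles, vehicle (DMSO) groups included, and the labels do not say whether the line is 1 clone. The titles were read as 2 sets of libraries, with n = 2 in each of 7 groups. A time-course set comprised 5-Ph-IAA for 3 or 12 h and vehicle, whose labels give no time. The same vehicle libraries serve both times, so time in culture and time with 5-Ph-IAA cannot be told apart. A Nutlin set comprised 5-Ph-IAA with Nutlin, Nutlin alone, 5-Ph-IAA alone and vehicle. Nutlin blocks MDM2 and so stabilises p53. Treated libraries of the Nutlin set carry a 3 h label that names no drug, and the Nutlin dose is not stated. The labels do not say that replicates were separate cultures, so p-values may measure technical spread only.

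The time-course libraries held 29578916 to 35140464 expected counts, except replicate 2 at 12 h with 3535163. The Nutlin set held 12646787 to 17233327. Of the colon epithelial markers, EPCAM (125 to 163 TPM), KRT8 (1270 to 2000 TPM) and KRT18 (860 to 1360 TPM) were high in every library. CDH1 (6.8 to 25.9 TPM), KRT20 (2.13 to 3.19 TPM) and CDX2 (1.26 to 4.2 TPM) were lower. VIL1 reached no more than 0.26 TPM and was listed at 0 in 2 libraries. Markers of T cells (CD3E) and fibroblasts (DCN) were listed at 0 in all 14 libraries. Other markers of that kind were low but not absent, such as COL1A1 (0.41 to 1.91 TPM) and CD68 (up to 5.01 TPM). A list of 14 markers of other cell types summed to 84 and 89.9 TPM at 12 h, against 70.9 and 87.4 TPM in vehicle, nearly all of it TUBB3. The colon epithelial list, most of it KRT8 and KRT18, summed to 3450 and 3460 TPM at 12 h, against 2900 and 2950 TPM in vehicle. Mitochondrially encoded genes took 0.251% and 0.291% of counts at 12 h, against 0.163% and 0.215% in vehicle, and 0.311% and 0.189% in Nutlin replicates 1 and 2. The part of these differences in the results below was not tested. The degron acts on protein, so HNRNPU RNA does not check the depletion. In CPM, counts scaled to library depth within a set, HNRNPU had 509 and 544 CPM in vehicle, 524 and 547 CPM at 3 h, and 671 and 636 CPM at 12 h. It was thus higher in both libraries at 12 h than in any other library of its set (log2 fold change against vehicle 0.31 ± 0.0626, with ± for the SE, adjusted p = 0.00744 by edgeR). In the Nutlin set HNRNPU had 573 and 619 CPM with 5-Ph-IAA and Nutlin, 505 and 572 CPM with Nutlin, 646 and 639 CPM with 5-Ph-IAA, and 640 and 634 CPM in vehicle. No contrast of that set passed for HNRNPU, and 5-Ph-IAA differed from vehicle there by 0.012 on the log2 scale. In bulk RNA, fewer cells in S phase and less replication gene RNA per cell cannot be told apart.

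Promoter letters are shown for some of the members that passed a test below, because E2F control is the best known feature these genes share. The 250 bases before the RefSeq start (GRCh38.p14) were searched on both strands for the E2F-type letters TTTCGCGC, TTTGGCGC, TTTCCCGC and TTTGCCGC, with overlapping matches counted. RefSeq windows were at hand for 38 of the 44 genes. Of these 38 genes, 14 held a match (36.8%), against 928 of 27305 genes in all (3.4%). The 14 were CDT1, GINS2, GMNN, LIG1, MCM3, MCM6, MCM7, PCNA, POLA1, POLA2, POLE, RFC3, TIPIN and TYMS. The CCAAT letters stood in 57.1% of 49 windows of members, against 32.0% of 35116 in all. The letters TTTGAA or TTCGAA, known as the CHR of genes of later cell cycle phases, stood in 4.08% of the members' windows, against 14.3% of all windows. Neither a match nor its absence shows what binds there. The windows below are of POLE at chr12:132687343-132687592 (- strand), RFC3 at chr13:33817899-33818148 (+ strand), MCM3 at chr6:52284743-52284992 (- strand), GMNN at chr6:24775163-24775412 (+ strand) and POLE2 at chr14:49688215-49688464 (- strand). They run 5′ to 3′ on the gene's strand, and capitals mark the E2F-type match.
POLE: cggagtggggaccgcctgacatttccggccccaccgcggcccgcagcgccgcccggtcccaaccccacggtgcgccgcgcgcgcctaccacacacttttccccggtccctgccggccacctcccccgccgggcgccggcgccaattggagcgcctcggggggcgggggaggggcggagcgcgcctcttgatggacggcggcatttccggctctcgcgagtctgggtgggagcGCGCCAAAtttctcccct
RFC3: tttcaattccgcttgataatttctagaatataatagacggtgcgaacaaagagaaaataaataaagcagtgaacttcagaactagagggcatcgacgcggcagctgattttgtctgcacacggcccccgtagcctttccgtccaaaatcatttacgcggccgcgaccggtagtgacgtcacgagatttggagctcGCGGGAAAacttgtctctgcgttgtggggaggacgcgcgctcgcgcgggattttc
MCM3: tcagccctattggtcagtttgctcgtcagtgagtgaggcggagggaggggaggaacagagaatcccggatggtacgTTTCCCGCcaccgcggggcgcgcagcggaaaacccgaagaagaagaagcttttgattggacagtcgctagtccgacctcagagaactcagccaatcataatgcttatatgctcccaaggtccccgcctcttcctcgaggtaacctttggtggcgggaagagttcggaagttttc
GMNN: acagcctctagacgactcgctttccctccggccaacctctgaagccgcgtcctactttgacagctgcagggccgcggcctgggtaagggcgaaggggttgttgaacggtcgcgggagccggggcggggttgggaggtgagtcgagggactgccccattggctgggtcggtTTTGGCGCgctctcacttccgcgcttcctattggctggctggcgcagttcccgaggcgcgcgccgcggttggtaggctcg
POLE2: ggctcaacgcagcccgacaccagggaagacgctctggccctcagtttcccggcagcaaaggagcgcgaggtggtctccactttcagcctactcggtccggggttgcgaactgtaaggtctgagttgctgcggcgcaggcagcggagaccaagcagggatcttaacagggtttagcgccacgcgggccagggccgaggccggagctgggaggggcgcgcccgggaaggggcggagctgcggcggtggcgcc
The match began 18 bases before the start in POLE, 55 in RFC3, 174 in MCM3 and 80 in GMNN. GMNN has a further listed start whose window held no match. The POLE2 window held none of the letters, nor did those of SLBP and CLSPN, the other members that passed at 12 h against vehicle. CDC6 and RRM1, which passed at 12 h against 3 h, held no E2F-type match either.

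By TPM, which sets counts against transcript length, the mean over the 14 libraries ran from 277 TPM for PCNA, the sliding clamp, to 7.34 TPM for CLSPN, the claspin adaptor of the replication checkpoint. The highest of each role group were CDC6 (71.0 TPM) among licensing factors, MCM7 (188 TPM) in the helicase ring, and MCM10 (31.3 TPM) among the factors that activate it. PRIM1, the catalytic primase subunit, led the polymerases at 40.2 TPM. FEN1, the flap nuclease of lagging strand maturation, had 81.6 TPM, RRM2, the small subunit of ribonucleotide reductase, had 139 TPM, and SLBP, which binds the stem-loop of histone mRNAs, had 74 TPM. Across all 14 libraries the highest TPM of a member was between 1.15 times its lowest (RPA2, of the single-strand binding complex) and 2.84 times (POLE, the catalytic subunit of polymerase epsilon). Together the members took 0.639% to 0.688% of the counts of a library. All 44 passed the low-count filter in every fit, and their rounded counts ran from 91 to 21828.

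**Figure D1:**
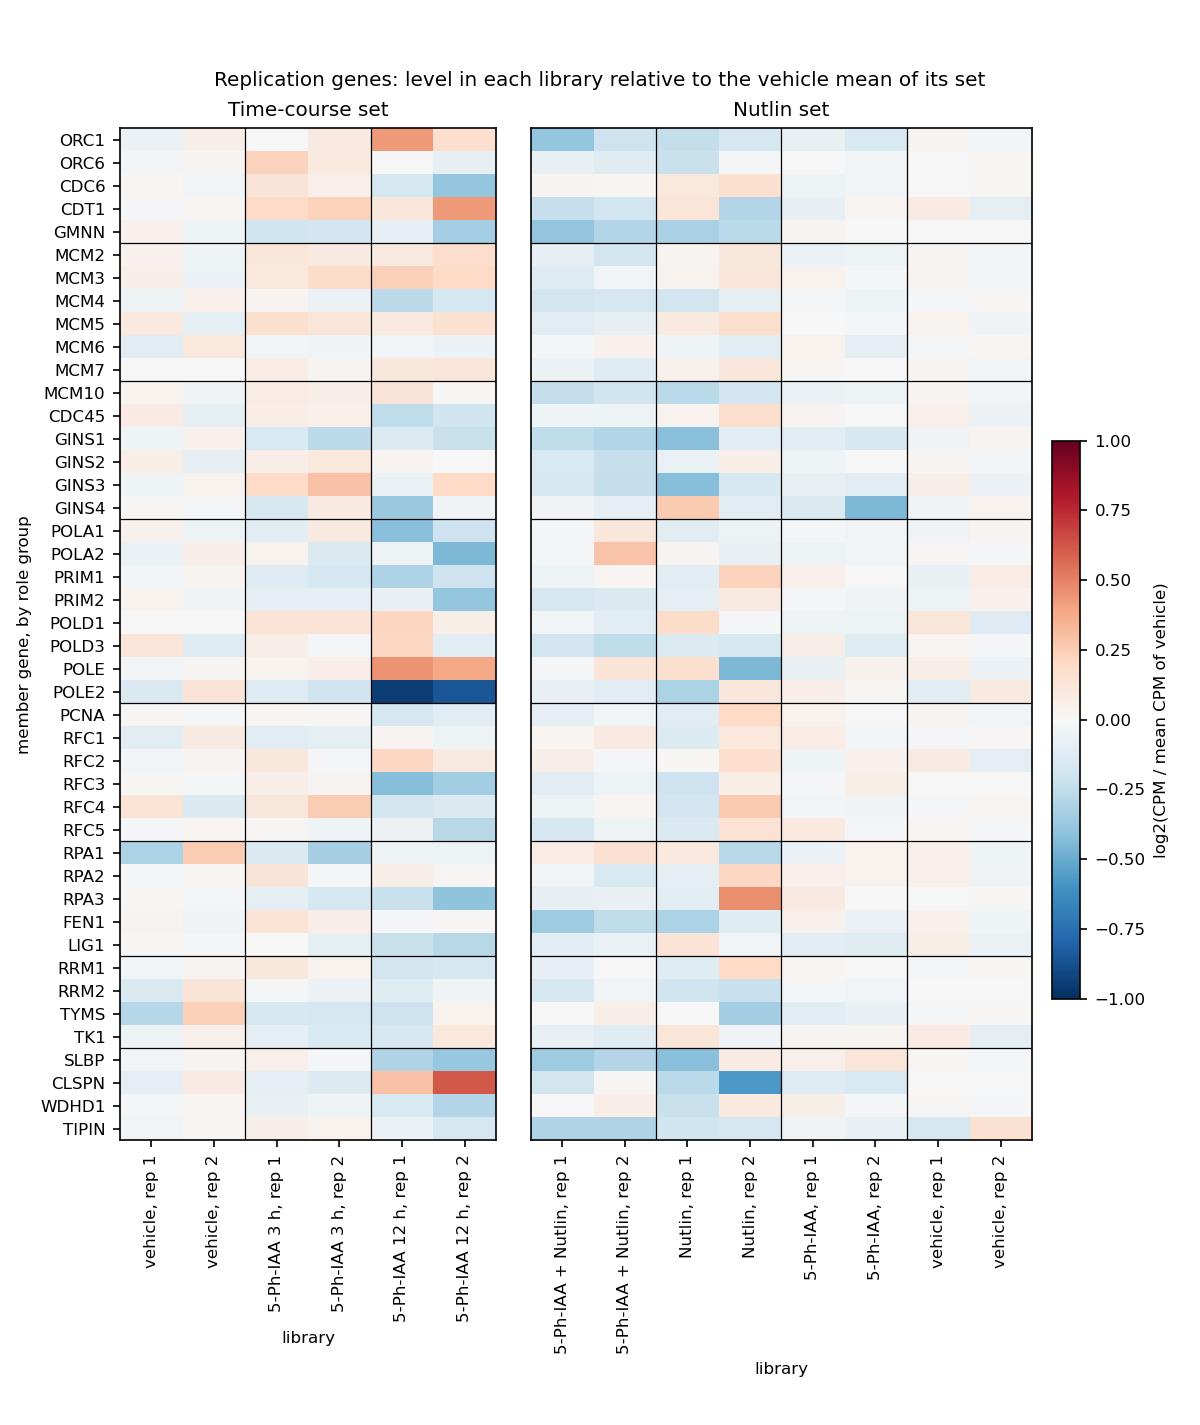
Level of each of the 44 genes (down the page, grouped by role) in each library (across), as log2 of CPM over the mean CPM of the vehicle libraries of its set, from blue (lower) to red (higher). The darkest cells are POLE2 in both 12 h libraries, and the Nutlin replicates differ from each other more than other pairs do.

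At 3 h of 5-Ph-IAA no replication gene passed the test. Log2 fold changes against vehicle lay between -0.23 and 0.24, with a median of 0.022 over members and -0.013 over all 19049 genes tested. Of those, 0.0682% (13 genes) passed an adjusted p of 0.05 in edgeR's quasi-likelihood test, and 0 of the 44 did, where 0.063% of all genes were raised and 0.00525% lowered. At an unadjusted p of 0.05, 1 member was higher and 1 lower, where 6.45% of all genes were under it in either direction. GINS1, a GINS subunit, had 76 and 81 CPM in vehicle, 70.7 and 65.3 CPM at 3 h, and 71.5 and 67.1 CPM at 12 h. Its 3 h libraries lay below both vehicle libraries, at -0.21 ± 0.0908 on the log2 scale (adjusted p = 0.766). MCM3 was at 0.14 ± 0.0648 (adjusted p = 0.766) and GINS3 at 0.24 ± 0.119 (adjusted p = 0.772). In 15 members both 3 h libraries lay above both vehicle libraries (18.7% of all genes did), and in 7 both lay below (20.1% of all genes). The 95% intervals of the 44 changes lay within -0.54 to 0.50. RPA1 was at -0.47 when vehicle replicate 1 was left out, a fit in which vehicle rests on replicate 2 only. It had 109 and 162 CPM in vehicle, 123 and 108 CPM at 3 h, and 132 and 131 CPM at 12 h, so the vehicle pair itself was 1.49-fold apart.

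The Nutlin set repeats 5-Ph-IAA against its own vehicle, and no member passed there either. Of 17251 genes tested, 0.0% passed by edgeR (245 at an unadjusted p of 0.05, and 1 gene by DESeq2), and 0 of the 44 members were under an unadjusted p of 0.05. In 1 member both 5-Ph-IAA libraries lay above both vehicle libraries (14.7% of all genes did), and in 14 both lay below (14.8% of all genes). The lowest p belonged to GINS4, at 25.5 ± 3.76 CPM with 5-Ph-IAA and 31.2 ± 1.1 CPM in vehicle (SD, n = 2 each), a log2 fold change of -0.29 ± 0.148 (adjusted p = 1.0). CLSPN (-0.14 ± 0.118) and LIG1, the ligase that seals Okazaki fragments (-0.12 ± 0.0969), followed. One model over the 3 h libraries of both sets, with a term for set, gave no called gene among 18873 (0.0%; 872 at an unadjusted p of 0.05, and 5 genes by DESeq2). In that model the 95% intervals of all 44 members lay within -0.34 to 0.27, and the lowest p was that of GINS1 (-0.17 ± 0.0568, adjusted p = 0.943), ahead of CLSPN (-0.12 ± 0.0601) and MCM3 (0.083 ± 0.0478). A member's sign at 3 h was the same in both sets in 21 of 44 cases. The difference between the sets, time-course minus Nutlin, passed for no member and for 0.0636% of all genes. GINS3 had the lowest p of that difference (0.35 ± 0.135, adjusted p = 0.732), then CDT1 (0.26 ± 0.124) and MCM2 (0.17 ± 0.0865).

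At 12 h of 5-Ph-IAA 38 of the 44 replication genes did not pass, 3 fell and 3 rose. POLE2, the second subunit of polymerase epsilon, fell most, and POLE, its catalytic partner, rose. RFC3, a subunit of the clamp loader, and SLBP fell, and CLSPN and MCM3 rose. Of all 19049 genes, 11.4% passed in this comparison, 3.39% raised and 7.97% lowered, so 6 of 44 members is near that background. The median log2 fold change was -0.09 over members and -0.0031 over all genes, with 27 members below 0 and 17 above. At an unadjusted p of 0.05, 4 members were higher and 12 lower, where 25.3% of all genes were under it in either direction.

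POLE2 (ENSG00000100479.14, chromosome 14, 49643555 to 49688422, - strand) had 40.9 and 49.3 CPM in vehicle, 41.2 and 39.2 CPM at 3 h, and 23.4 and 24.9 CPM at 12 h. Both 12 h libraries lay well below the other 4, and the 3 h pair reached into the vehicle range. The log2 fold change of 12 h against vehicle was -0.92 ± 0.131 (adjusted p = 0.00125). POLE (ENSG00000177084.19, chromosome 12, 132623753 to 132687365, - strand) had 92.5 and 96 CPM in vehicle, 96.5 and 98.7 CPM at 3 h, and 129 and 123 CPM at 12 h. The 12 h pair stood above the other 4 libraries, at 0.42 ± 0.0817 (adjusted p = 0.00617). So these 2 subunits of a single polymerase moved in opposite directions in the same libraries, while POLA1, POLA2, POLD1 and POLD3 of the other replicative polymerases did not pass.

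RFC3 (ENSG00000133119.13, chromosome 13, 33818049 to 33966558, + strand) had 86.1 and 85.1 CPM in vehicle, 89.5 and 87.4 CPM at 3 h, and 63.8 and 67.4 CPM at 12 h. Again only the 12 h pair was low (-0.39 ± 0.0892, adjusted p = 0.0139). SLBP (ENSG00000163950.13, chromosome 4, 1692800 to 1712555, - strand) had 156 and 162 CPM in vehicle, 165 and 158 CPM at 3 h, and 129 and 122 CPM at 12 h, with a log2 fold change of -0.34 ± 0.0778 (adjusted p = 0.0155). In either gene the 12 h libraries did not overlap those of vehicle or 3 h. CLSPN (ENSG00000092853.14, chromosome 1, 35720218 to 35769967, - strand) had 39 and 44 CPM in vehicle, 39 and 37.7 CPM at 3 h, and 50.9 and 63.8 CPM at 12 h. Its 12 h replicates were further apart than those of the other 5, and the change was 0.43 ± 0.126 (adjusted p = 0.0472). MCM3 (ENSG00000112118.20, chromosome 6, 52264009 to 52284881, - strand) had 423 and 391 CPM in vehicle, 438 and 462 CPM at 3 h, and 481 and 468 CPM at 12 h. Its groups do not overlap at 12 h against vehicle, and its gap was the smallest of the 6 as a ratio (0.22 ± 0.0659, adjusted p = 0.0495).

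**Figure D2:**
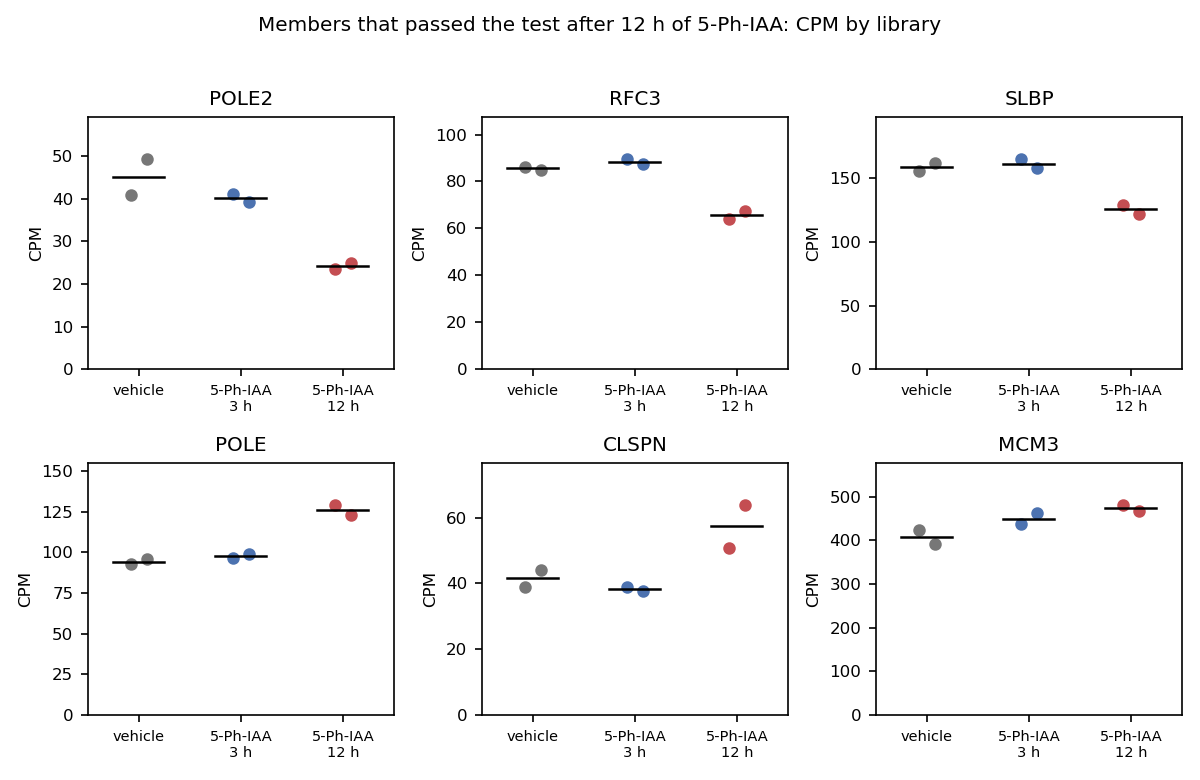
CPM of the 6 genes that passed at 12 h against vehicle, by group in order of time, with 1 point per library and a line at the mean of 2 libraries. POLE2, RFC3 and SLBP are low, and POLE, CLSPN and MCM3 high, in both 12 h libraries.

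Replicate 2 at 12 h was the shallow library, with 91 to 2414 counts per member. Without it POLE2 (-0.95, adjusted p = 0.00197), POLE (0.44, adjusted p = 0.011) and RFC3 (-0.43, adjusted p = 0.0211) still passed, and SLBP (-0.31, adjusted p = 0.0521), CLSPN (0.29, adjusted p = 0.186) and MCM3 (0.24, adjusted p = 0.0867) did not. Without replicate 1 at 12 h POLE2 (-0.84, adjusted p = 0.0294) and CLSPN (0.63, adjusted p = 0.0317) passed, and POLE (adjusted p = 0.0652), RFC3 (0.165), SLBP (0.0656) and MCM3 (0.204) did not. CLSPN also lost its call without vehicle replicate 1 (adjusted p = 0.116) and MCM3 without vehicle replicate 2 (adjusted p = 0.214).

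By role, 1 of the 6 genes of the MCM ring passed at 12 h. MCM3 rose, MCM7 (0.12), MCM2 (0.12) and MCM5 (0.12) were above 0 on the log2 scale, and MCM6 (-0.046) and MCM4 (-0.22 ± 0.0666, adjusted p = 0.052) below. MCM4 had 497 and 534 CPM in vehicle, 526 and 494 CPM at 3 h, and 430 and 456 CPM at 12 h, so its 12 h pair was the lowest in spite of the p just above the threshold. None of the 5 licensing factors passed: ORC1 was at 0.33 (adjusted p = 0.0646) and CDC6, the loader of the MCM ring, at -0.25 (adjusted p = 0.0817), with CDT1 at 0.23, ORC6 at -0.03 and GMNN at -0.17. ORC1 passed by DESeq2 (adjusted p = 0.0261), with RLE size factors (0.0484), with no low-count filter (0.0353), in 1 fit of all 14 libraries (0.0489), and without replicate 2 of vehicle (0.0448) or of 12 h (0.0251). CDC6 passed with no filter (adjusted p = 0.0307). Factors that activate the helicase lay between -0.25 (GINS4) and 0.08 (MCM10). Among polymerases and primase, 5 of 8 were below 0, among them POLA1, the catalytic subunit of polymerase alpha (-0.34, adjusted p = 0.0616), and PRIM1 (-0.27, adjusted p = 0.0833).

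The clamp PCNA had 493 and 482 CPM in vehicle, 494 and 492 CPM at 3 h, and 432 and 450 CPM at 12 h. Its 12 h libraries were the lowest, at -0.15 ± 0.0598, and the adjusted p was 0.142. Of the clamp loader, RFC1, RFC2, RFC4 and RFC5 lay between -0.17 and 0.16, apart from RFC3. RPA, FEN1 and LIG1 lay between -0.28 (RPA3) and 0.035 (RPA2). All 4 genes of nucleotide supply, RRM1, RRM2, TYMS (thymidylate synthase) and TK1 (thymidine kinase), were below 0, between -0.18 and -0.05, and none passed. WDHD1 (-0.20), which tethers polymerase alpha, and TIPIN (-0.10), of the fork protection complex, did not pass. In 9 members both 12 h libraries lay above both vehicle libraries (22.9% of all genes did), and in 19 both lay below (27.9% of all genes).

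Set against 3 h, which shares its 12 h libraries with the comparison above, 12 h lowered 5 members and raised 2. Over all genes 8.14% passed, 2.35% raised and 5.79% lowered. In 7 members both 12 h libraries lay above both 3 h libraries (23.3% of all genes did), and in 19 below (28.3% of all genes). POLE2 (-0.75 ± 0.131, adjusted p = 0.00539), RFC3 (-0.44 ± 0.0892, adjusted p = 0.0107) and SLBP (-0.36 ± 0.0778, adjusted p = 0.0147) fell, and POLE (0.37 ± 0.0816, adjusted p = 0.0163) and CLSPN (0.54 ± 0.126, adjusted p = 0.0218) rose. CDC6 had 171 and 166 CPM in vehicle, 185 and 175 CPM at 3 h, and 150 and 129 CPM at 12 h, and fell by 0.35 on the log2 scale (adjusted p = 0.0287). RRM1, the large subunit of ribonucleotide reductase, had 265 and 275 CPM in vehicle, 292 and 277 CPM at 3 h, and 238 and 239 CPM at 12 h, and fell by 0.25 (adjusted p = 0.0387). For both genes the 3 h pair was the highest and the 12 h pair the lowest of the set. Each of the 7 genes lost its call without at least 1 of the 4 libraries compared, POLE2 only without 12 h replicate 1 (adjusted p = 0.0789) and RRM1 without any one of them (0.0653 to 0.243).

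Other replication and S phase genes, a list of 56 that shares no gene with the members, were counted beside them. At 12 h 2 were raised and 16 lowered, with a median of -0.14. Of all 19049 genes 3.39% were raised and 7.97% lowered there, with a median of -0.0031. ORC4, a subunit of the origin recognition complex, had 75.3 and 87.7 CPM in vehicle, 68.4 and 66.3 CPM at 3 h, and 34.4 and 43 CPM at 12 h (-1.13 ± 0.124, adjusted p = 0.000372). DCK, which phosphorylates deoxycytidine (-0.86, adjusted p = 0.000723), and DSCC1, of an alternative clamp loader (-0.70, adjusted p = 0.00187), also fell. The 2 that rose were SSRP1, of the histone chaperone FACT (0.33, adjusted p = 0.00487), and NASP, a chaperone of H3 and H4 (0.30, adjusted p = 0.0482). Of 16 regulators of the G1/S transition 0 rose and 4 fell at 12 h, beside the same shares of all genes. They were RB1, the restraint on E2F (-0.87, adjusted p = 0.00292), the cyclins CCNA2 (-0.41, adjusted p = 0.00361) and CCNE2 (-0.51, adjusted p = 0.0435), and CDKN1B, the CDK inhibitor p27 (-0.42, adjusted p = 0.036). At 3 h 0 of the 56 passed, where 0.0682% of all genes did.

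Changes at 12 h moved with base composition. Over the 44 members the log2 fold change and the GC percent of the longest transcript had a Spearman correlation of 0.43, against 0.34 over 17075 genes, all from the same 4 libraries. RFC3 and POLE2 have 39.1% and 43.7% GC, and POLE and MCM3 have 55.6% and 51.6%, while CLSPN rose at 44.8% and SLBP fell at 50.7%. After subtracting a GC trend from each library RFC3 was at -0.092 (adjusted p = 0.627), POLE at 0.27 (adjusted p = 0.071) and MCM3 at 0.12 (adjusted p = 0.297), while POLE2 (-0.80, adjusted p = 0.00467), SLBP (-0.42, adjusted p = 0.0093) and CLSPN (0.50, adjusted p = 0.0403) still passed. LIG1 (-0.40, adjusted p = 0.0335) and MCM4 (-0.26, adjusted p = 0.0379) gained a call. Over all genes the subtraction left 898 calls, against 2163 without it. It also removes any change at 12 h that itself goes with GC, so a lost call does not give a cause. The part of GC content in the 12 h changes was not tested further. The GC trend was not particular to 12 h. Over members the correlation was 0.36 at 3 h against vehicle (0.16 over all genes with a GC value). It was 0.32 with Nutlin alone against vehicle (0.14) and -0.41 with both drugs against Nutlin alone (-0.22). No member passed in these comparisons with every library kept. In the Nutlin set the correlation was weaker for the auxin analog (-0.1) or both drugs (-0.03) against vehicle. Both drugs against the analog gave 0.05.

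**Figure D3:**
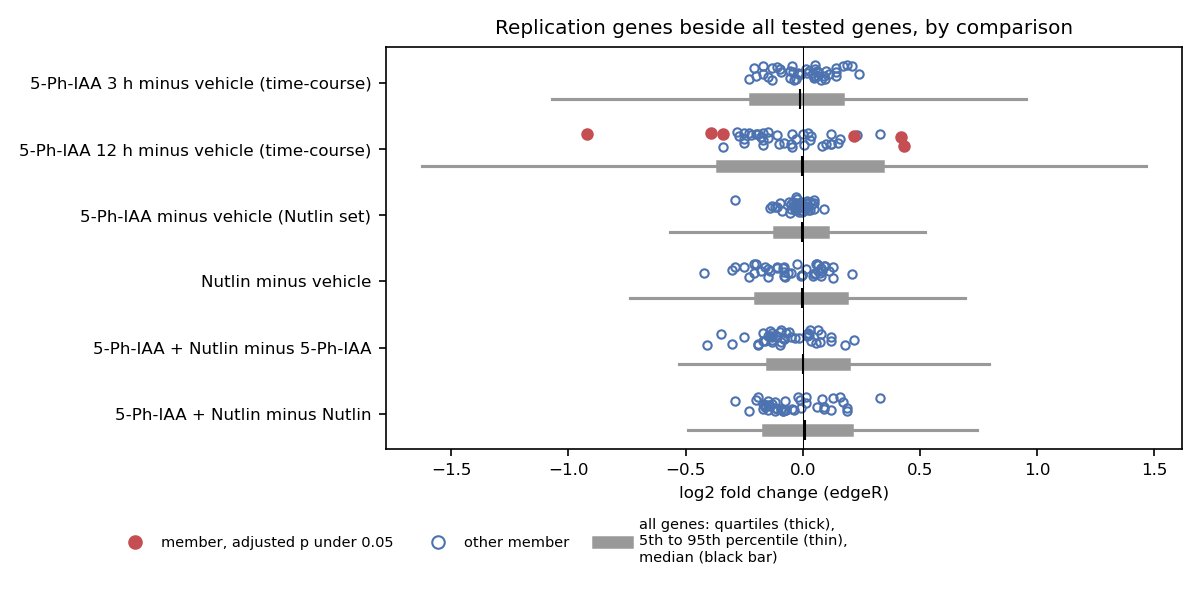
Log2 fold change (edgeR, horizontal) of the 44 genes in 6 comparisons (down the page), with filled points for an adjusted p under 0.05 and open points for the rest. Grey bars below each row give the quartiles and the 5th to 95th percentiles of all tested genes, and filled points appear only at 12 h against vehicle.

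Per transcript length the 12 h changes looked different for some members. RSEM reports an effective length for each gene, the length of its isoforms weighted by their estimated abundance, and TPM divides by it. RRM2 had an effective length of 1958 and 1910 nt in vehicle, 1878 and 1981 nt at 3 h, and 1459 and 1495 nt at 12 h. Its CPM at 12 h over vehicle was -0.07 on the log2 scale, and its TPM 0.38. RFC1, the large clamp loader subunit, had 3923 and 3244 nt in vehicle, 3823 and 2808 nt at 3 h, and 2343 and 2913 nt at 12 h, with -0.01 by CPM and 0.51 by TPM. POLE2 had 900 and 962 nt in vehicle, 914 and 839 nt at 3 h, and 727 and 741 nt at 12 h, so its fall was -0.90 by CPM and -0.49 by TPM. In these 3 genes both 12 h libraries were shorter than both vehicle libraries. CLSPN went the other way, with 4562 and 4052 nt in vehicle, 5734 and 5915 nt at 3 h, and 5244 and 5353 nt at 12 h, and 0.47 by CPM and 0.22 by TPM. At 12 h 11 members were shorter than in vehicle with no overlap (20.1% of all genes were) and 9 were longer (35.7% of all genes). In 4 members, RFC1, RRM2, POLD3 and POLE2, the mean was shorter by at least 20% (10.2% of all genes). CPM and TPM gave opposite signs for 9 of the 44. Only CLSPN, GINS4, WDHD1 and PRIM1 were lower by TPM than by CPM. MCM7, of nearly unchanged length, was at 0.12 by CPM and 0.18 by TPM, and PCNA at -0.15 and -0.10. CPM and TPM thus also differ apart from a gene's own length, and the part of scaling in these signs was not tested. Tested on log2(TPM + 0.1) with limma, which is not a count test, none of the 6 genes passed, and POLE2 was at -0.48 (adjusted p = 0.133). That test called only 2 genes in all, against 2163 by edgeR. The missing calls thus do not show that the 6 changes come from length. An isoform estimate rests on few reads in the shallow 12 h library, and its part in the shorter lengths was not tested. In RFC1, RRM2, POLD3 and POLE2 replicate 1 at 12 h, the deep library, had the shorter length of the 12 h pair, by little in RRM2 and POLE2. For POLD3 it had 2027 nt, against 2516 nt in the shallow library. In other members, such as GINS1, MCM4, TIPIN and SLBP, the shallow library had the shorter length. For GINS1 the shallow library had 1816 nt, against 2393 nt in the deep library.

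**Figure D4:**
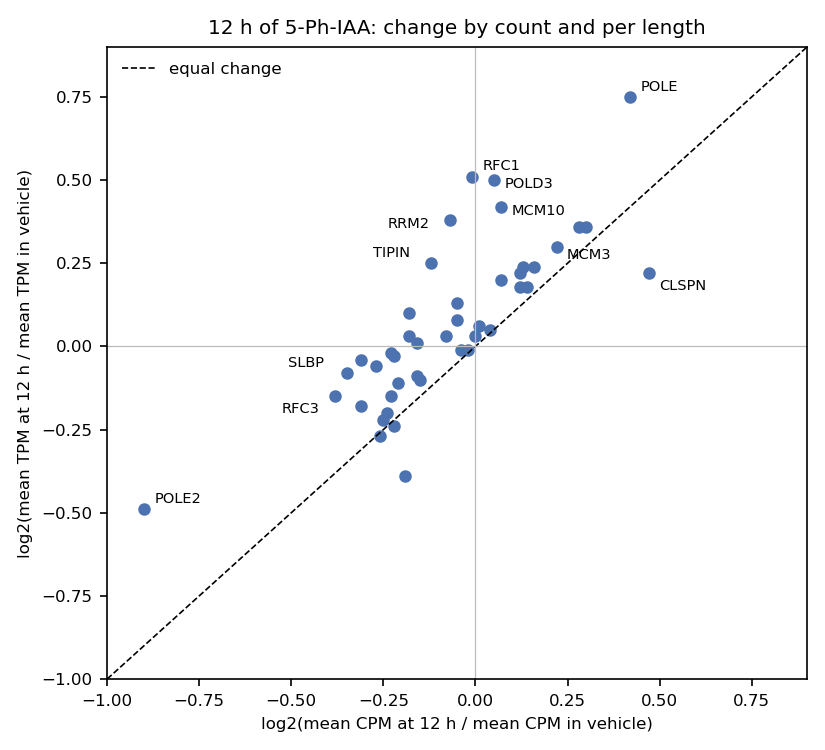
Log2 ratio of mean TPM (vertical) against log2 ratio of mean CPM (horizontal) at 12 h over vehicle, with 1 point per gene and the dashed line where they are equal. RFC1, RRM2, POLD3, POLE2, TIPIN, MCM10 and POLE lie furthest above the line, and CLSPN and GINS4 furthest below it.

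Nutlin alone moved the known p53 target CDKN1A, which had 467 and 427 CPM with 5-Ph-IAA and Nutlin, 537 and 519 CPM with Nutlin, 205 and 205 CPM with 5-Ph-IAA, and 200.0 and 197 CPM in vehicle. Its log2 fold change with Nutlin alone was 1.41 ± 0.0874 (adjusted p = 3.16e-05). CDC25A, the phosphatase of S phase entry, fell by 0.57 with Nutlin (adjusted p = 0.0481). No replication gene passed against vehicle, where 0.464% of 17251 genes did, 0.394% raised and 0.0696% lowered. The median was -0.036 over members, and 6 members were lower and 0 higher at an unadjusted p of 0.05, where 10.8% of all genes were under it in either direction. In 4 members both Nutlin libraries lay above both vehicle libraries (18.3% of all genes did), and in 13 both lay below (17.8% of all genes). CLSPN had 60.1 and 68.7 CPM with both drugs, 56.6 and 45.9 CPM with Nutlin, 62.5 and 61.3 CPM with 5-Ph-IAA, and 68.6 and 68 CPM in vehicle. It was the lowest with Nutlin alone, at -0.42 ± 0.119 against vehicle (adjusted p = 0.242). GMNN (-0.30 ± 0.0929, adjusted p = 0.303) and MCM10 (-0.23 ± 0.0848, adjusted p = 0.381) had the next lowest p.

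The Nutlin replicates were further apart than any other pair. Between them the median member differed 1.15-fold and POLE most, at 1.53-fold, and 19 members differed more than 1.2-fold, whereas medians in the other 6 groups were 1.03 to 1.06 and 0 to 8 members passed 1.2-fold. Each Nutlin library left out gave other calls. Without replicate 1, CLSPN (-0.57), POLE (-0.44), TYMS (-0.35) and RPA1 (-0.28) were lowered and RPA3 (0.47) and RFC4 (0.27) raised against vehicle, beside 2131 genes called in all. Without replicate 2, SLBP (-0.42), GINS1 (-0.42), GINS3 (-0.43), FEN1 (-0.32) and MCM10 (-0.28) were lowered, beside 1177 genes called in all. With both libraries 80 genes were called. No member was in both lists.

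In cells given 5-Ph-IAA, Nutlin gave 0 calls among the members as well, beside 0.388% of all genes, 0.342% raised and 0.0464% lowered. FEN1 had 179 and 192 CPM with both drugs, 184 and 211 CPM with Nutlin, 236 and 220 CPM with 5-Ph-IAA, and 236 and 222 CPM in vehicle. All 4 libraries with Nutlin thus lay below all 4 without it. Its log2 fold change with both drugs against 5-Ph-IAA alone was -0.30 ± 0.0988 (adjusted p = 0.459). GMNN was at -0.35 ± 0.0926 (adjusted p = 0.278). SLBP had 133 and 139 CPM with both drugs, 127 and 180 CPM with Nutlin, 176 and 185 CPM with 5-Ph-IAA, and 171 and 168 CPM in vehicle, with -0.41 ± 0.14 (adjusted p = 0.468). In 27 members both libraries with both drugs lay below both 5-Ph-IAA libraries (23.3% of all genes did), and in 7 above (23.1% of all genes). With these 2 groups fitted alone GMNN, FEN1 and SLBP passed beside 622 genes in all, against 67 genes in the fit of the whole set.

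Over both arms, the Nutlin effect lowered 1 replication gene, GMNN, where 1.44% of all genes passed, 0.956% raised and 0.487% lowered. GMNN (ENSG00000112312.10, chromosome 6, 24774931 to 24786099, + strand) had 43.8 and 46.9 CPM with both drugs, 45.9 and 47.6 CPM with Nutlin, 58.6 and 57.2 CPM with 5-Ph-IAA, and 57.2 and 57.7 CPM in vehicle. Every library with Nutlin was below every library without it, and the averaged log2 fold change was -0.32 ± 0.0656 (adjusted p = 0.0442). The call was kept without either Nutlin library (adjusted p = 0.00515 and 0.00317) and lost without any one of the other 6 (0.181 to 0.286). At an unadjusted p of 0.05, 11 members were lower and 0 higher, where 13.4% of all genes were under it in either direction. Among the 11 were FEN1 (-0.25, adjusted p = 0.142), MCM10 (-0.20, adjusted p = 0.188), ORC1 (-0.20, adjusted p = 0.245) and SLBP (-0.28, adjusted p = 0.256). PCNA and the clamp loader genes lay within -0.081 to 0.057. Of the 16 G1/S regulators CDKN1A rose (1.27) and CDC25A fell (-0.61), and 0 of the 56 other replication genes passed.

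**Figure D5:**
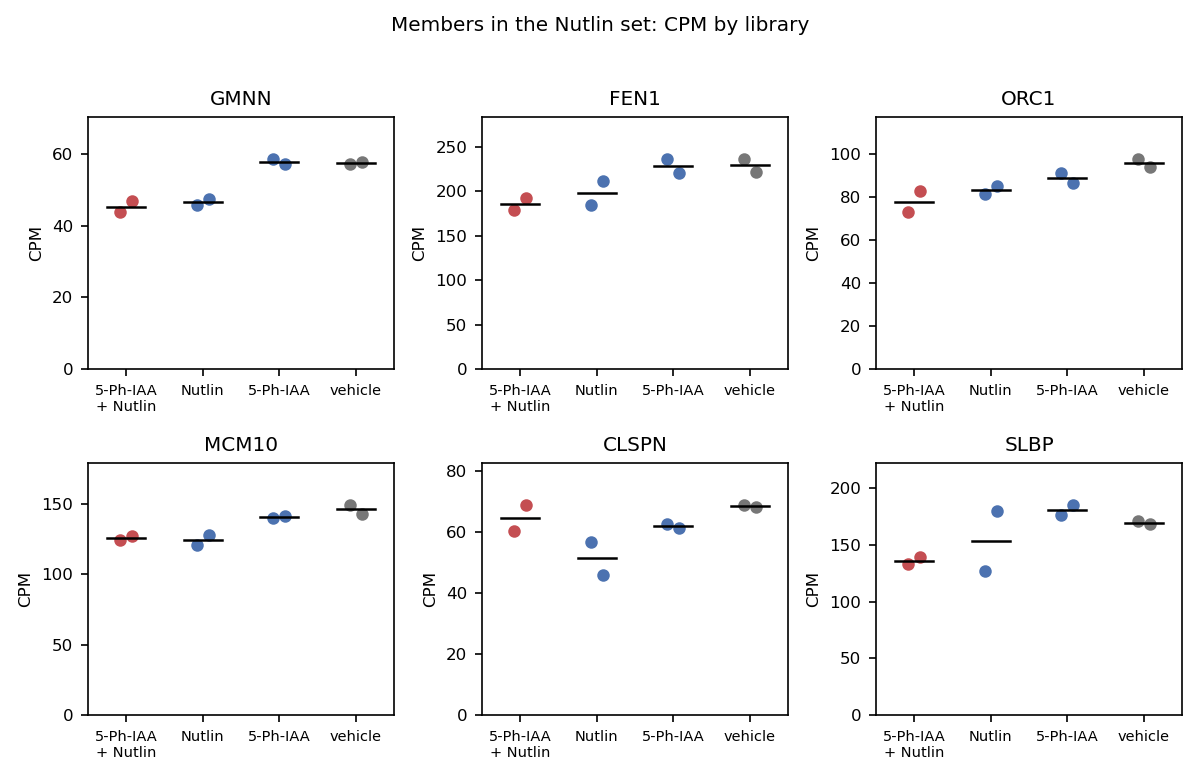
CPM of 6 genes in the Nutlin set, by group, with 1 point per library and a line at the mean of 2 libraries. GMNN is between 43.8 and 47.6 CPM in all libraries with Nutlin and between 57.2 and 58.6 CPM in all without it, whereas SLBP and CLSPN differ between the replicates with Nutlin alone.

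Against vehicle, the 2 drugs together lowered or raised no member beside 0.325% of all genes, 0.284% raised and 0.0406% lowered. The median was -0.087 over members and -0.0021 over all genes, and 34 members were below 0. In 23 members both libraries lay below both vehicle libraries (22.3% of all genes did), and in 3 above (22.7% of all genes). The lowest p belonged to GMNN (-0.34 ± 0.0927, adjusted p = 0.299), ORC1, the large subunit of the origin recognition complex (-0.30 ± 0.0965, adjusted p = 0.45), and FEN1 (-0.30 ± 0.0988, adjusted p = 0.462). ORC1 had 73 and 83.1 CPM with both drugs, 81.4 and 85.2 CPM with Nutlin, 91.3 and 86.6 CPM with 5-Ph-IAA, and 97.8 and 94.2 CPM in vehicle, so vehicle was highest, 5-Ph-IAA next, and only the groups with Nutlin overlapped.

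The interaction of 5-Ph-IAA and Nutlin asked whether 5-Ph-IAA changes what Nutlin does, and no member and 0.0% of all genes passed by edgeR (623 genes at an unadjusted p of 0.05, and 1 gene by DESeq2). CLSPN had the lowest p among members (0.47 ± 0.167, adjusted p = 0.989), then MCM5 (-0.23 ± 0.119) and TYMS (0.28 ± 0.163). Both drugs against Nutlin alone gave 0.0% of genes as well (1404 at an unadjusted p of 0.05, and 24 genes by DESeq2), with CLSPN at 0.33 ± 0.119 (adjusted p = 0.604), MCM5 at -0.23 ± 0.0841 (adjusted p = 0.604) and MCM2 at -0.20 ± 0.0857 (adjusted p = 0.611). Both contrasts rest on the Nutlin pair: without its replicate 1, both drugs against Nutlin alone lowered 10 members and raised 4 beside 2490 genes called in all. The interaction then passed for 1035 genes, 6 of them members, POLE, RPA1, TYMS and CLSPN above 0 and RPA3 and SLBP below, whereas without replicate 2 no member passed in either.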

How the data were processed

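The deposited tables are RSEM gene tables of 14 stranded total RNA libraries, and per the file headers they hold expected counts, TPM and an effective length per gene. The submitters' processing notes name STAR 2.7.10b, RSEM, DESeq2 1.48.1 and GRCh38 (hg38). The annotation release is not given in the sources used here. Symbols were found for 61463 identifiers (78.1%). The deposited expected counts were rounded to whole numbers. The authors' TPM values were used for levels, for markers and for 1 alternative test.

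Each set was fitted with edgeR 4.0.16 (R 4.3.3): TMM factors, filterByExpr (minimum count 10, minimum total 15), 1 coefficient per group and quasi-likelihood F tests. Two-sided p-values were adjusted over all genes tested (Benjamini-Hochberg, threshold 0.05). Levels are CPM scaled by TMM, ± SD with n = 2, and can be compared only inside a set. Log2 fold changes carry ± SE. The biological coefficient of variation was 0.176 (time-course, 3 residual degrees of freedom) and 0.114 (Nutlin set, 4). Depths were 3535163 to 35140464 counts. Between replicates the chi-square of counts per degree of freedom was 3.28 to 22.2, where 1 is counting error alone.

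The members and lists were chosen with earlier results of these data known. Full statistics go to up to 6 raised and 6 lowered members per comparison, by p, or to the 3 with the lowest p where none passed. The member of each role group with the highest TPM, and up to 4 genes per direction of the other lists, are named too. A gene that this rule picks is not reported here. RPA1 at 3 h, the 12 h genes just outside the threshold, the genes named for effective length and those called with a library left out were named after their values were seen. The alternatives were a replicate block, DESeq2 1.42.0, 1 fit of all 14 libraries, RLE size factors, the compared groups only, each library left out and no low-count filter. Added after seeing the data were limma 3.58.1 on log2(TPM + 0.1) and a GC correction, a lowess trend (span 0.3) on the GC percent of the longest GENCODE 29 transcript, known for at least 89.6% of tested genes. Replicate numbers did not pair the libraries: same-numbered libraries deviated from their group means with correlations of -0.0888 to 0.047.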

Additional observations from a re-analysis of the deposited data

How the results depend on the processing

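Counts of members passing an adjusted p of 0.05 changed with the setting as follows, and causes were not tested unless named. At 12 h against vehicle (3 raised, 3 lowered), DESeq2 raised 5, no low-count filter lowered 6, and the compared groups alone raised 1. The GC correction raised 1, and limma on TPM raised 0 and lowered 0. Over all genes, 2163 were called in the main fit, 1391 with the compared groups alone, 898 with the GC correction and 2 by limma. Where no count over all genes is given, as for DESeq2 and no filter here, the members cannot be set against that share. At 12 h against 3 h (2 raised, 5 lowered), all 14 libraries in 1 fit raised 1 and lowered 3, the GC correction raised 1 and lowered 2, no filter lowered 8, and limma on TPM raised 0 and lowered 0, with RRM1 at 0.054 instead of -0.25. With the compared groups alone, 3 members were lowered by both drugs against vehicle and 3 against 5-Ph-IAA. The averaged Nutlin effect (1 lowered) lowered 2 in 1 fit of all libraries, 2 with no filter and 0 by limma on TPM.

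The replicate numbers share no known source. With the replicate block, 6 members were lowered at 12 h against vehicle and 0 by the averaged Nutlin effect. No count over all genes is given for either comparison under the block, so the 6 cannot be set against that share. Under that block 45 genes passed at 3 h of the time-course set and 6 for the difference between sets.

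Counts over all genes moved more. DESeq2 called 54 genes at 3 h, 1 with 5-Ph-IAA in the Nutlin set, 158 with Nutlin, 104 with both drugs against vehicle, 103 against 5-Ph-IAA, 24 against Nutlin, 1 for the interaction, 5 for the common 3 h effect and 47 for its difference between sets. No filter gave 193, 53, 405, 268, 270, 136, 57, 110 and 177 genes in the same order, and 2448 at 12 h against 3 h and 635 for the averaged Nutlin effect. The compared groups alone gave 1391 at 12 h against vehicle, 9 with 5-Ph-IAA in the Nutlin set, 27 with Nutlin, 392 with both drugs against vehicle and 622 against 5-Ph-IAA. All 14 libraries in 1 fit gave 88 for both drugs against vehicle. The GC correction gave 898 at 12 h against vehicle, 837 against 3 h, 134 with Nutlin and 95 with both drugs against vehicle. Limma on TPM gave 0 at 3 h, 2 and 1 at 12 h against vehicle and against 3 h, 27 with Nutlin, 34 and 25 with both drugs against vehicle and 5-Ph-IAA, and 77 for the averaged effect.

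The members' median log2 fold change was -0.043 at 12 h against vehicle with the GC correction and -0.12 against 3 h with no filter. By limma on TPM it was -0.011 at 3 h, 0.038 at 12 h against vehicle, 0.06 against 3 h, 0.035 with 5-Ph-IAA in the Nutlin set, -0.099 with Nutlin, 0.015, -0.029 and 0.034 with both drugs against vehicle, 5-Ph-IAA and Nutlin, and 0.0079 for the interaction.

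Leaving out each library in turn gave these ranges. Members lowered were 0 to 1 at 3 h, 1 to 4 at 12 h against vehicle and 1 to 4 against 3 h. With Nutlin they were 0 to 5, with both drugs against Nutlin 0 to 10, for the interaction 0 to 2 and for the averaged effect 0 to 8. Members raised were 1 to 3 at 12 h against vehicle, 0 to 1 against 3 h, 0 to 2 with Nutlin, 0 to 4 with both drugs against Nutlin and 0 to 4 for the interaction. Genes called were 23 to 283 at 3 h, 961 to 2446 at 12 h against vehicle, 612 to 1545 against 3 h, 25 to 2131 with Nutlin, 21 to 30 with both drugs against vehicle, 16 to 28 against 5-Ph-IAA and 0 to 2490 against Nutlin. They were 0 to 1035 for the interaction, 84 to 1977 for the averaged effect, 0 to 2 for the common 3 h effect and 5 to 145 for the difference between sets. Medians of members were -0.11 to -0.04 at 12 h against vehicle, -0.11 to -0.011 with Nutlin, -0.13 to 0.014 with both drugs against Nutlin, -0.088 to 0.017 for the interaction, -0.093 to -0.014 for the averaged effect and 0.02 to 0.08 for the difference between sets. Where a group was left with 1 library, that library was assumed to vary like the other groups. RLE size factors moved no count of genes by over 1.5 times.

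Of named members, POLE2 at 12 h against vehicle passed under every alternative except limma on TPM. POLE (adjusted p = 0.0649), SLBP (0.0822) and MCM3 (0.0657) did not pass in 1 fit of all 14 libraries, and CLSPN (0.0877) and MCM3 (0.0832) did not with the compared groups alone. The averaged GMNN effect was -0.32 with an adjusted p of 0.0835 under the replicate block. With every library kept, members outside the 6 gained calls at 12 h against vehicle as follows. ORC1, MCM4 and MCM7 gained them by DESeq2, ORC1 with RLE size factors, and ORC1, CDC6, MCM4 and POLA1 with no filter. ORC1 and POLA1 gained them in 1 fit of all libraries, CDC6, MCM4 and POLA1 under the block, and LIG1 and MCM4 with the GC correction. With n = 2 per group the smaller changes of members could not be told from 0.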
